A study of Mus musculus with 15 samples.

Results

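The collagen genes were followed across 15 mouse liver RNA-seq libraries. Members were the gene symbols of the form Col, number, a, number (Col1a1, Col4a3 and so on) whose mean over the 15 libraries was at least 0.2 CPM, the count-per-million share of a library's gene counts. Of 24411 genes in the count files, 44 had such a symbol and 37 reached the minimum. Of these 37, 34 also passed the low-count filter of the model and were tested, while Col8a2, Col28a1 and Col4a6 were not. Just inside the minimum were Col28a1 at 0.225, Col4a6 at 0.283 and Col8a2 at 0.351 CPM. Just outside it were Col10a1 at 0.184 and Col25a1 at 0.178 CPM. Col19a1, Col22a1, Col24a1, Col26a1 and Col6a4 were the other 5 left out. Col28a1 alone among the 37 would have fallen under the minimum without the group in which it was highest, at 0.158 CPM.

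All 15 libraries came from livers of male FVB/NJ mice, 3 in each of 5 groups. Triple livers carried S45Y-mutant CTNNB1 (beta-catenin), G31A-mutant NFE2L2 (NRF2) and hMET, which the labels do not spell out and which is read here as human MET. CTNNB1/MET livers carried S45Y-CTNNB1 with hMET, CTNNB1/NFE2L2 livers S45Y-CTNNB1 with G31A-NFE2L2, and NFE2L2/MET livers G31A-NFE2L2 with hMET. Wild-type (WT) FVB livers were the controls. The labels give no age, vector, promoter, time after delivery or share of altered cells, and do not say whether a control vector was used. They also do not say whether each library came from its own animal. A p-value here therefore sets a group difference against the spread of these samples only, which may be technical. In whole tissue, fewer cells of a type and less RNA per cell cannot be told apart.

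Collagens are proteins of 3 chains wound into a triple helix, and each chain has its own gene. Fibrillar collagens form the tensile fibrils of connective tissue and, in fibrotic liver, of scar, where activated stellate cells and portal fibroblasts are their main source. Type IV chains form the network of basement membranes, with the pair of Col4a1 and Col4a2 used in most tissues and the set of Col4a3, Col4a4 and Col4a5 known best from the kidney glomerulus. Type II, IX and XI chains make the fibrils of cartilage. The 37 members were split into 7 fibrillar, 6 cartilage, 9 basement membrane, 7 microfibril or short-chain network, 4 fibril-associated and 4 transmembrane or other collagens.

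Levels are given as CPM scaled by the trimmed mean of M-values (TMM), called CPM from here on, and group means as mean ± SD over 3 libraries. Library totals over genes ran from 14084343 (WT replicate 1) to 20702618 counts (CTNNB1/MET replicate 3). Changes are log2 fold changes ± SE from edgeR's quasi-likelihood test on all 15 libraries. Adjusted p-values are Benjamini-Hochberg values over 14098 genes, and a gene was called higher or lower where its value was under 0.05. The tissue label held: summed hepatocyte markers ran from 24494.3 to 175807.6 CPM over the 15 libraries. Of 8 bone markers 2 were tested, and the list summed to 26.5 to 52.4 CPM per library, most of it Alpl, a phosphatase that liver also makes. The bone-defining genes Bglap and Ibsp were at most 0.0719 and 0.0593 CPM. Of 10 muscle markers 2 were tested, the list summed to 2.77 to 4.33 CPM, and the defining genes Myh4 and Ckm were at most 0.0641 CPM and at 0 CPM.

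Col4a4 (with its neighbour Col4a3), Col6a6 and Col23a1 had the widest differences between transgene groups, and the DNA just ahead of their annotated starts is shown for that reason. The windows are from RefSeq on GRCm38.p6, end at the base before the gene's start in GENCODE M21, and run 5′ to 3′ on the gene's strand. Capitals mark matches to the GC box GGGCGG on either strand.
Col4a4, chr1:82586850-82586920, minus strand: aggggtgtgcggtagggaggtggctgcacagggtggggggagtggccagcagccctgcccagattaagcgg
Col6a6, chr9:105828161-105828335, minus strand: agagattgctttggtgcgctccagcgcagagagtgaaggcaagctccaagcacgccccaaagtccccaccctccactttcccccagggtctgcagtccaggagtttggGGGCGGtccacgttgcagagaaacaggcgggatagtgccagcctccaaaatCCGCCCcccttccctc
Col23a1, chr11:51289670-51289919, plus strand: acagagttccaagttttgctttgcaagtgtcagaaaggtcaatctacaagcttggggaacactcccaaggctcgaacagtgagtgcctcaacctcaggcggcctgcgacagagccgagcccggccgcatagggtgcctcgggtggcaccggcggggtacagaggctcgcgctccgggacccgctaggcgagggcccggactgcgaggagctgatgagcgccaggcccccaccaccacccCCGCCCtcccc

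The Col4a4 stretch is the whole gap between Col4a4 and Col4a3, which are transcribed away from each other from starts with 71 bases between them. Col4a3 spans chr1:82586921-82722059 on the plus strand and Col4a4 chr1:82448423-82586849 on the minus strand. The Col6a6 stretch held 2 GC boxes, the Col23a1 stretch 1 and the Col4a4 stretch 0. The GC box is in 32.7% of 32851 windows of 250 bases ahead of annotated starts. The letters CTTTGAT (the core of a TCF/LEF motif, bound by partners of beta-catenin) are in 3.21% of those windows and TGACNNNGC (an antioxidant response element core, bound by NRF2) in 10.2%. TATAAA is in 12.4% and CCAAT in 33.8%. None of these 4 was found in the 3 stretches on either strand, which says only that these letters are absent there. The Col4a4 and Col6a6 stretches, at 71 and 175 bases, are shorter than those windows, so the shares are not like for like with them. Among 38 windows of 35 collagen genes in the table, CTTTGAT was found in 1, that of Col9a2, and TGACNNNGC in 6, those of Col4a2, Col6a2, Col6a5, Col7a1, Col9a2 and Col24a1.

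The clearest differences between transgene groups were in Col4a3, Col4a4 and Col6a6, which were high in CTNNB1/MET livers, intermediate in NFE2L2/MET livers and low in the other groups. Col4a3 had 0.205, 0.529 and 0.876 CPM in triple livers, 18.3, 14.4 and 10.1 CPM in CTNNB1/MET livers, 0.338, 0.418 and 0.611 CPM in CTNNB1/NFE2L2 livers, 2.42, 1.53 and 3.72 CPM in NFE2L2/MET livers, and 0.719, 0.593 and 0.898 CPM in WT livers. The 3 CTNNB1/MET libraries stood above all others, and the 3 NFE2L2/MET libraries above all of the remaining 9. Col4a3 rose in CTNNB1/MET livers against WT livers (log2 fold change 4.26 ± 0.40, edgeR adjusted p = 3.44e-06) and in NFE2L2/MET livers against WT livers (1.80 ± 0.42, adjusted p = 0.00677). It was higher in CTNNB1/MET than in NFE2L2/MET livers (2.46 ± 0.34, edgeR adjusted p = 0.000141).

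The triple livers carry the same S45Y-CTNNB1 and hMET as the CTNNB1/MET livers, with G31A-NFE2L2 added, and their Col4a3 was lower by 4.70 on the log2 scale (−4.70 ± 0.40, edgeR adjusted p = 9.03e-07). They also lay below the NFE2L2/MET livers (−2.24 ± 0.42, edgeR adjusted p = 0.000996). Against CTNNB1/NFE2L2 livers the triple livers did not pass the test (0.25 ± 0.52, edgeR adjusted p = 0.759).

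Col4a4, the partner chain of Col4a3 across the shared 71 bases, was likewise highest in CTNNB1/MET and next in NFE2L2/MET livers. It had 0.358, 0.240 and 0.243 CPM in triple livers, 4.84, 5.03 and 3.34 CPM in CTNNB1/MET livers, 0.290, 0.0523 and 0 CPM in CTNNB1/NFE2L2 livers, 1.30, 0.799 and 1.43 CPM in NFE2L2/MET livers, and 0.0719, 0.119 and 0.0641 CPM in WT livers. The CTNNB1/MET libraries and then the NFE2L2/MET libraries were again separate from the rest. Summed over 3 libraries, 214 counts in CTNNB1/MET livers stood against 4 in WT livers, a ratio whose counting interval ran from 19.3 to 185. The fitted change was 5.56 ± 0.60 (edgeR adjusted p = 1.33e-05), and with so few WT counts its size is uncertain. NFE2L2/MET livers held 59 counts against those 4 in WT livers, a ratio of 13.8 with an interval of 5.12 to 52.4 (edgeR adjusted p = 0.000938). Triple livers were lower than CTNNB1/MET livers (−3.94 ± 0.49, edgeR adjusted p = 2.63e-05).

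Col4a5, the chain that joins Col4a3 and Col4a4 in the kidney's network, did not share that order. It had 5.07, 4.76 and 2.14 CPM in triple livers, 1.59, 1.91 and 1.67 CPM in CTNNB1/MET livers, 0.870, 0.993 and 0.778 CPM in CTNNB1/NFE2L2 livers, 2.18, 2.40 and 2.46 CPM in NFE2L2/MET livers, and 4.17, 3.68 and 1.86 CPM in WT livers. The CTNNB1/NFE2L2 libraries lay below all others. Col4a5 fell in CTNNB1/NFE2L2 livers against WT livers (−1.87 ± 0.35, edgeR adjusted p = 0.000483), a call lost against WT replicate 3 alone. It was higher in triple than in CTNNB1/NFE2L2 livers (2.17 ± 0.35, edgeR adjusted p = 0.000508). The difference of triple from CTNNB1/MET livers (1.21 ± 0.33, adjusted p = 0.0099) was lost on the reads of 1 strand alone (adjusted p = 0.111). Col4a6, which starts 1309 bases from Col4a5 on the X chromosome, averaged between 0.201 and 0.356 CPM in the 5 groups and was not tested.

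Col6a6 encodes a chain that can stand in for the third chain of type VI microfibrils. It had 0.614, 0.144 and 0.389 CPM in triple livers, 6.25, 4.54 and 7.57 CPM in CTNNB1/MET livers, 0.242, 0.0523 and 0.111 CPM in CTNNB1/NFE2L2 livers, 1.65, 2.33 and 1.43 CPM in NFE2L2/MET livers, and 0.360, 1.01 and 0.128 CPM in WT livers. The order of the groups was that of Col4a3, with CTNNB1/MET libraries above all others. Col6a6 rose in CTNNB1/MET livers against WT livers (3.57 ± 0.51, edgeR adjusted p = 0.000224), on 311 counts against 24. Triple livers were lower than CTNNB1/MET livers (−3.99 ± 0.52, edgeR adjusted p = 4.07e-05) and lower than NFE2L2/MET livers (−2.22 ± 0.54, adjusted p = 0.00558). The difference of CTNNB1/MET from NFE2L2/MET livers (1.77 ± 0.44, edgeR adjusted p = 0.0136) was lost without CTNNB1/MET replicate 3 (adjusted p = 0.0727), without NFE2L2/MET replicate 1 (0.0533) and without NFE2L2/MET replicate 3 (0.0502). That of NFE2L2/MET from WT livers (1.80 ± 0.54, adjusted p = 0.0245) was lost in 5 of 13 planned settings, with an adjusted p of up to 0.107. Its neighbour on chromosome 9, Col6a5, had 4.61, 0.625 and 1.02 CPM in triple livers, 0.736, 1.63 and 0.940 CPM in CTNNB1/MET livers, 0.290, 0.261 and 0.500 CPM in CTNNB1/NFE2L2 livers, 2.18, 2.06 and 2.29 CPM in NFE2L2/MET livers, and 0.647, 0.890 and 1.22 CPM in WT livers. Triple replicate 1 stood above all other libraries. The higher Col6a5 of triple than of CTNNB1/NFE2L2 livers (2.55 ± 0.65, edgeR adjusted p = 0.00993) was lost without that library (adjusted p = 0.0866).

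Col23a1, a transmembrane collagen whose ectodomain can be shed, divided the groups in another way: it was higher in all 3 groups that carry S45Y-CTNNB1. It had 3.33, 1.87 and 3.60 CPM in triple livers, 6.93, 4.54 and 2.61 CPM in CTNNB1/MET livers, 1.16, 0.993 and 0.945 CPM in CTNNB1/NFE2L2 livers, 0.177, 0.0665 and 0.172 CPM in NFE2L2/MET livers, and 0.647, 0.475 and 0.192 CPM in WT livers. All 9 libraries with S45Y-CTNNB1 lay above the 6 without it. Col23a1 rose against WT livers in triple livers (2.74 ± 0.45, edgeR adjusted p = 0.000128) and in CTNNB1/MET livers (3.41 ± 0.45, adjusted p = 9.1e-05). The rise in CTNNB1/NFE2L2 livers against WT livers (1.24 ± 0.48, edgeR adjusted p = 0.0441) was lost in 9 of 13 planned settings, with an adjusted p of up to 0.165. NFE2L2/MET livers differed from WT livers by −1.57 ± 0.67 (edgeR adjusted p = 0.102). Against NFE2L2/MET livers, CTNNB1/MET livers held 227 counts to 7, a ratio of 32.3 with an interval of 15.4 to 81.4 (edgeR adjusted p = 8.13e-06). CTNNB1/MET livers were also higher than CTNNB1/NFE2L2 livers (2.17 ± 0.39, edgeR adjusted p = 0.000484).

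**Figure D1:**
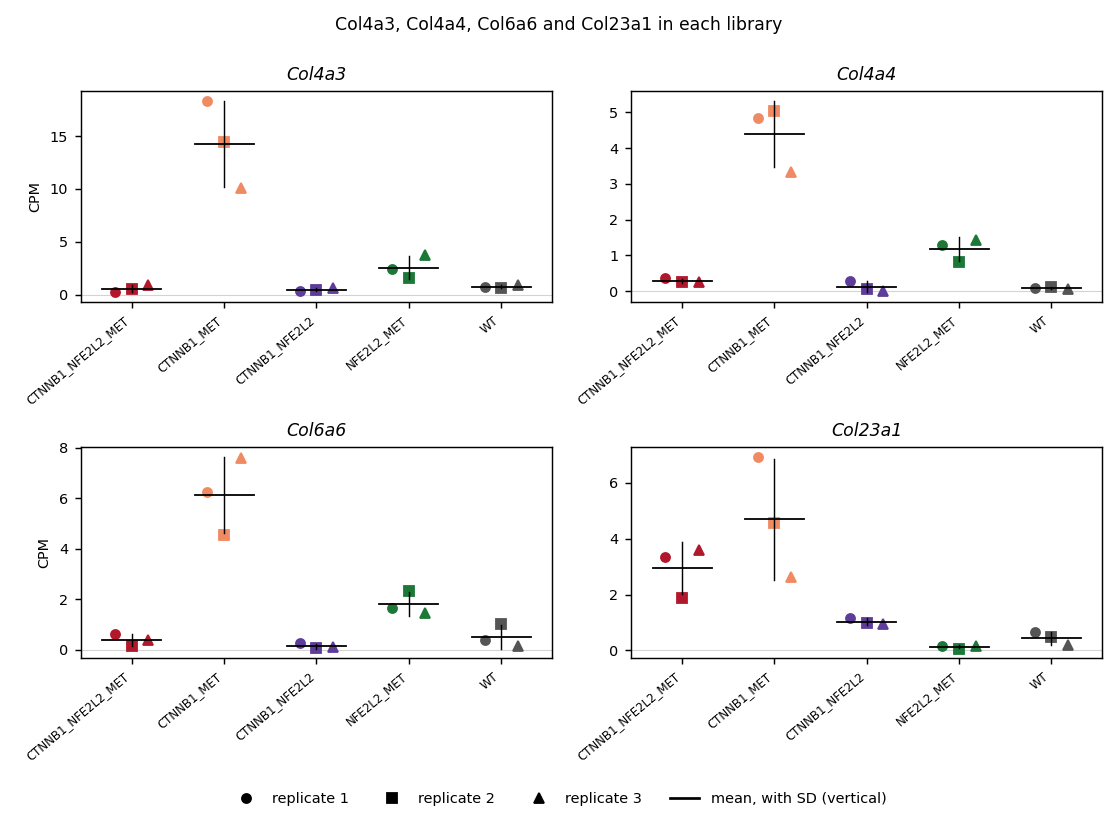
Col4a3, Col4a4, Col6a6 and Col23a1 in each of the 15 libraries, in TMM-scaled CPM on linear axes; points are libraries, horizontal lines group means and bars 1 SD (n = 3 each). Col4a3, Col4a4 and Col6a6 are high in CTNNB1/MET and intermediate in NFE2L2/MET livers, while Col23a1 is above both NFE2L2/MET and WT libraries in every library with S45Y-CTNNB1.

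The widely used basement membrane pair took a different course again. Col4a1, which starts opposite Col4a2 on chromosome 8, had 129.9, 107.7 and 72.0 CPM in triple livers, 70.9, 54.5 and 59.6 CPM in CTNNB1/MET livers, 70.8, 75.6 and 52.0 CPM in CTNNB1/NFE2L2 livers, 54.0, 47.6 and 63.2 CPM in NFE2L2/MET livers, and 47.5, 48.0 and 36.4 CPM in WT livers. Triple replicates 1 and 2 were above all other libraries, and triple replicate 3 lay within the range of the CTNNB1/NFE2L2 livers. Col4a1 rose in triple livers against WT livers (1.23 ± 0.20, edgeR adjusted p = 0.000196) and was higher than in NFE2L2/MET livers (0.91 ± 0.20, adjusted p = 0.00382). Its excess over CTNNB1/MET livers (0.74 ± 0.20, edgeR adjusted p = 0.0113) was lost without triple replicate 1 (0.54, adjusted p = 0.0592) and without CTNNB1/MET replicate 2 (0.66, adjusted p = 0.051). Its excess over CTNNB1/NFE2L2 livers (0.64 ± 0.20, edgeR adjusted p = 0.0315) was lost in 5 of 13 planned settings, among them without triple replicate 1 (0.44, adjusted p = 0.146). Col4a1 was also higher in CTNNB1/NFE2L2 than in WT livers (0.59, adjusted p = 0.0272), a call lost without WT replicate 3 (adjusted p = 0.105).

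Col4a2 had 73.0, 64.9 and 50.4 CPM in triple livers, 59.5, 36.5 and 47.5 CPM in CTNNB1/MET livers, 41.7, 49.1 and 31.1 CPM in CTNNB1/NFE2L2 livers, 34.8, 31.6 and 42.6 CPM in NFE2L2/MET livers, and 52.3, 45.4 and 39.0 CPM in WT livers. It was higher in triple than in NFE2L2/MET livers (0.79 ± 0.20, edgeR adjusted p = 0.00923), and against WT livers it did not pass the test (0.46, adjusted p = 0.0718). Per length, as CPM divided by the exon length in kilobases (RPKM), the ratio of Col4a1 to Col4a2 was 1.06 to 1.58 in the 12 transgene libraries and 0.805 to 0.937 in the 3 WT libraries, so the ranges did not overlap. The same ratio of Col4a3 to Col4a1 was 0.193, 0.198 and 0.127 in CTNNB1/MET livers, 0.0335, 0.0241 and 0.0441 in NFE2L2/MET livers and at most 0.0185 in the other 9 libraries.

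Col18a1, a basement membrane heparan sulfate proteoglycan whose end fragment is endostatin, is a collagen that hepatocytes themselves are known to make. Per length it was the highest collagen, at 81.5 ± 5.51 RPKM in triple, 149.5 ± 25.7 in CTNNB1/MET, 101.7 ± 4.80 in CTNNB1/NFE2L2, 138 ± 18.8 in NFE2L2/MET and 175.5 ± 7.64 in WT livers (SD, n = 3 each). It made up 46.9% to 74.1% of the summed collagen RPKM of a library. On the CPM scale it had 616.7, 548.9 and 550.4 in triple livers, 908.5, 986.8 and 1253 in CTNNB1/MET livers, 676.0, 740.9 and 724.3 in CTNNB1/NFE2L2 livers, 875.1, 1119.6 and 911.7 in NFE2L2/MET livers, and 1207.2, 1195 and 1293.4 in WT livers. The triple libraries were the lowest 3, the CTNNB1/NFE2L2 libraries the next 3, and neither overlapped any other group.

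Col18a1 fell in triple livers against WT livers (−1.11 ± 0.14, edgeR adjusted p = 1.1e-05) and in CTNNB1/NFE2L2 livers against WT livers (−0.79 ± 0.14, adjusted p = 0.000261). CTNNB1/MET livers (−0.23, edgeR adjusted p = 0.271) and NFE2L2/MET livers (−0.35, adjusted p = 0.0808) did not pass against WT livers. Triple livers were lower than CTNNB1/MET livers (−0.88 ± 0.14, edgeR adjusted p = 0.000212) and lower than NFE2L2/MET livers (−0.76 ± 0.14, adjusted p = 0.000748). Triple and CTNNB1/NFE2L2 livers differed by −0.32 (edgeR adjusted p = 0.101). Summed hepatocyte markers were 63593.7 to 70293.9 CPM in triple, 125094.7 to 133760.7 in CTNNB1/MET, 24494.3 to 32851 in CTNNB1/NFE2L2, 131107.9 to 175807.6 in NFE2L2/MET and 72677.1 to 95237.9 in WT livers. Their part in the Col18a1 result was not tested.

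Col15a1, the close relative of Col18a1 found near vessels, was lowest in CTNNB1/NFE2L2 livers. It had 5.73, 4.28 and 3.45 CPM in triple livers, 5.39, 4.32 and 6.06 CPM in CTNNB1/MET livers, 2.80, 1.36 and 1.17 CPM in CTNNB1/NFE2L2 livers, 6.60, 11.9 and 7.90 CPM in NFE2L2/MET livers, and 4.75, 12.9 and 4.81 CPM in WT livers. The 3 CTNNB1/NFE2L2 libraries lay below the other 12. It fell in CTNNB1/NFE2L2 livers against WT livers (−2.07 ± 0.43, edgeR adjusted p = 0.00127) and was lower there than in NFE2L2/MET livers (−2.29 ± 0.43, adjusted p = 0.000879). Col7a1, the chain of skin anchoring fibrils, averaged 0.388 to 0.832 CPM in the 5 groups.

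**Figure D2:**
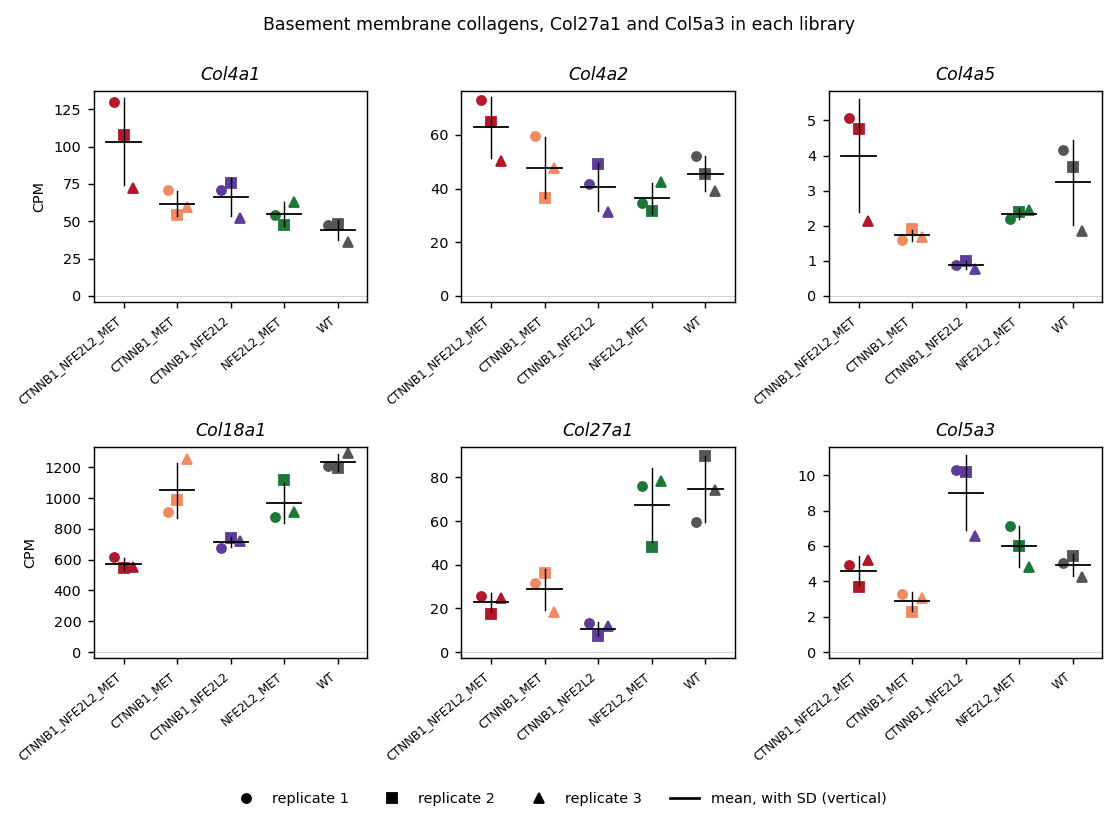
Col4a1, Col4a2, Col4a5, Col18a1, Col27a1 and Col5a3 in each of the 15 libraries, in TMM-scaled CPM on linear axes; points are libraries, lines group means and bars 1 SD (n = 3 each). Col4a1 is highest in triple livers, Col18a1 lowest in triple and CTNNB1/NFE2L2 livers, and Col27a1 and Col5a3 move in opposite directions in CTNNB1/NFE2L2 livers.

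Among the fibrillar collagens, type I and III, the scar-forming collagens of liver, were not called different between the 4 transgene groups. Col1a1, the main chain of type I collagen, had 77.7, 52.1 and 50.7 CPM in triple livers, 51.9, 55.2 and 72.2 CPM in CTNNB1/MET livers, 72.1, 66.5 and 23.8 CPM in CTNNB1/NFE2L2 livers, 69.9, 68.9 and 63.2 CPM in NFE2L2/MET livers, and 318.2, 325.9 and 54.5 CPM in WT livers. The 4 transgene groups overlapped, and WT replicates 1 and 2 stood above every other library while WT replicate 3 was within the transgene range. The test for any difference among the 4 transgene groups gave an edgeR adjusted p of 0.958 for Col1a1, 0.892 for Col1a2 and 0.337 for Col3a1. Pairwise changes of Col1a1 among transgene groups were at most 0.31 in size (edgeR adjusted p of 0.691 or more). These tests share their spread over all 15 libraries, the split WT libraries among them, so they are weak for these genes.

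Against WT livers Col1a1 was called lower in all 4 transgene groups: triple −1.95 ± 0.57 (edgeR adjusted p = 0.0136), CTNNB1/MET −1.96 ± 0.57 (0.0356), CTNNB1/NFE2L2 −2.10 ± 0.57 (0.00979) and NFE2L2/MET −1.79 ± 0.56 (0.0405). Those calls rest on WT replicates 1 and 2: against WT replicate 3 alone, which was assumed to vary like the other groups, the changes were 0.14, 0.13, 0.00 and 0.30 in the same order. Col1a2, the second chain of type I, had 78.4, 57.2 and 53.0 CPM in triple livers, 45.5, 54.8 and 62.3 CPM in CTNNB1/MET livers, 62.2, 57.5 and 23.6 CPM in CTNNB1/NFE2L2 livers, 64.2, 51.8 and 61.2 CPM in NFE2L2/MET livers, and 230.1, 227.6 and 43.3 CPM in WT livers. WT replicate 3 was thus below all 3 triple libraries, and the call of Col1a2 in triple livers (−1.41 ± 0.52, edgeR adjusted p = 0.0396) became 0.54 without WT replicates 1 and 2.

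Col3a1, type III collagen, ran beside type I with a smaller WT excess. It had 104.3, 64.3 and 71.5 CPM in triple livers, 39.3, 41.5 and 55.0 CPM in CTNNB1/MET livers, 67.1, 53.7 and 33 CPM in CTNNB1/NFE2L2 livers, 50.4, 49.6 and 65.9 CPM in NFE2L2/MET livers, and 129, 119.3 and 32.1 CPM in WT livers. WT replicate 3 was the lowest library and WT replicates 1 and 2 the highest pair. Triple against WT livers gave −0.22 ± 0.42 (edgeR adjusted p = 0.696) with all 3 WT libraries and 1.32 ± 0.40 (adjusted p = 0.024) with WT replicate 3 alone. Triple against CTNNB1/MET livers gave 0.82 ± 0.43 (edgeR adjusted p = 0.166). Per length, the ratio of Col1a1 to Col3a1 was 1.06 to 2.08 in the transgene libraries and 3.69, 4.09 and 2.54 in WT libraries.

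Col27a1 and Col5a3 were the fibrillar genes that did differ between transgene groups. Col27a1, a fibrillar chain expressed in cartilage and several epithelia, had 25.9, 17.6 and 24.8 CPM in triple livers, 31.5, 36.2 and 18.4 CPM in CTNNB1/MET livers, 13.2, 7.32 and 11.8 CPM in CTNNB1/NFE2L2 livers, 76.0, 48.0 and 78.5 CPM in NFE2L2/MET livers, and 59.8, 89.8 and 74.2 CPM in WT livers. The 9 libraries with S45Y-CTNNB1 lay below the 6 without it. Col27a1 fell against WT livers in triple (−1.71 ± 0.29, edgeR adjusted p = 0.000262), CTNNB1/MET (−1.38 ± 0.28, 0.00512) and CTNNB1/NFE2L2 livers (−2.79 ± 0.30, 7.9e-06). NFE2L2/MET livers differed from WT livers by −0.14 (edgeR adjusted p = 0.743). It was lower in CTNNB1/NFE2L2 than in NFE2L2/MET livers (−2.65 ± 0.30, edgeR adjusted p = 2.03e-05). CTNNB1/MET against NFE2L2/MET livers gave −1.24 ± 0.28 (adjusted p = 0.0103), a call lost without the 3 libraries marked as added (adjusted p = 0.064).

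Col5a3, a minor chain of type V collagen, had 4.92, 3.70 and 5.21 CPM in triple livers, 3.31, 2.27 and 3.03 CPM in CTNNB1/MET livers, 10.3, 10.2 and 6.56 CPM in CTNNB1/NFE2L2 livers, 7.13, 5.99 and 4.81 CPM in NFE2L2/MET livers, and 5.03, 5.46 and 4.23 CPM in WT livers. All CTNNB1/MET libraries were below, and all CTNNB1/NFE2L2 libraries above, the 3 WT libraries. CTNNB1/MET livers were lower than CTNNB1/NFE2L2 livers (−1.65 ± 0.23, edgeR adjusted p = 4.98e-05). CTNNB1/NFE2L2 livers were higher than WT livers (0.88 ± 0.22, edgeR adjusted p = 0.00374) and triple livers lower than CTNNB1/NFE2L2 livers (−0.97 ± 0.22, adjusted p = 0.00442). Col5a2, another chain of type V, also had WT replicates 1 and 2 far above the rest, with 23.8, 17.6 and 17.0 CPM in triple livers, 18.5, 17.1 and 16.6 CPM in CTNNB1/MET livers, 15.3, 12.9 and 7.39 CPM in CTNNB1/NFE2L2 livers, 19.4, 16.9 and 17.1 CPM in NFE2L2/MET livers, and 66.9, 68.8 and 17.9 CPM in WT livers.

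The cartilage collagens were present in every group at low to moderate level, with the same 2 WT libraries far above the rest. Col2a1, the chain of type II collagen, had 35.0, 58.7 and 28.7 CPM in triple livers, 41.0, 39.5 and 19.3 CPM in CTNNB1/MET livers, 16.0, 14.7 and 13.6 CPM in CTNNB1/NFE2L2 livers, 40.8, 47.3 and 76.8 CPM in NFE2L2/MET livers, and 192.4, 192.3 and 46.0 CPM in WT livers. WT replicate 3 was within the transgene range, and the CTNNB1/NFE2L2 libraries were the lowest 3. Col2a1 fell in CTNNB1/NFE2L2 livers against WT livers (−3.28 ± 0.54, edgeR adjusted p = 0.000408) and also against WT replicate 3 alone (−1.63 ± 0.47, adjusted p = 0.0228). It was lower in CTNNB1/NFE2L2 than in NFE2L2/MET livers (−1.89 ± 0.52, edgeR adjusted p = 0.0136), a call lost without NFE2L2/MET replicate 3 (−1.57, adjusted p = 0.0503).

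Col11a1, which nucleates type II fibrils, had 6.55, 11.8 and 3.65 CPM in triple livers, 6.80, 6.38 and 4.91 CPM in CTNNB1/MET livers, 2.95, 4.65 and 2.06 CPM in CTNNB1/NFE2L2 livers, 6.89, 7.52 and 13.4 CPM in NFE2L2/MET livers, and 34.8, 33.8 and 7.63 CPM in WT livers. Col11a2 had 1.48, 2.12 and 1.46 CPM in triple livers, 5.15, 3.83 and 2.45 CPM in CTNNB1/MET livers, 1.55, 1.62 and 0.834 CPM in CTNNB1/NFE2L2 livers, 3.42, 4.06 and 5.33 CPM in NFE2L2/MET livers, and 10.2, 7.30 and 3.85 CPM in WT livers. Here triple and CTNNB1/NFE2L2 libraries lay below all libraries of the other 3 groups. Col11a2 was lower in CTNNB1/NFE2L2 than in NFE2L2/MET livers (−1.67 ± 0.38, edgeR adjusted p = 0.00283) and higher in CTNNB1/MET than in CTNNB1/NFE2L2 livers (1.5 ± 0.38, adjusted p = 0.00637). Triple against NFE2L2/MET livers gave −1.34 ± 0.37 (edgeR adjusted p = 0.0119), lost without NFE2L2/MET replicate 3 (adjusted p = 0.0505).

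The type IX chains, which coat cartilage fibrils, were close to the detection floor. Col9a1 had 0.410, 0.865 and 0.341 CPM in triple livers, 0.368, 0.567 and 0 CPM in CTNNB1/MET livers, 0.145, 0.105 and 0.333 CPM in CTNNB1/NFE2L2 livers, 0.471, 0.466 and 1.89 CPM in NFE2L2/MET livers, and 1.44, 1.48 and 0.449 CPM in WT livers. NFE2L2/MET replicate 3 was its highest library, so WT replicates 1 and 2 did not stand alone here. Col9a2 had 0.563, 1.15 and 0.292 CPM in triple livers, 0.490, 0.425 and 0.313 CPM in CTNNB1/MET livers, 0.0966, 0.0523 and 0.222 CPM in CTNNB1/NFE2L2 livers, 0.236, 0.665 and 1.03 CPM in NFE2L2/MET livers, and 2.09, 2.19 and 0.449 CPM in WT livers. Col9a2 fell in CTNNB1/NFE2L2 livers against WT livers (−3.62 ± 0.76, edgeR adjusted p = 0.00111), a call lost against WT replicate 3 alone. Col9a3 shares 234 exon bases, 6.07% of its exon length, with Tcfl5 on the other strand, and the counts ignore strand, so its values are uncertain.

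**Figure D3:**
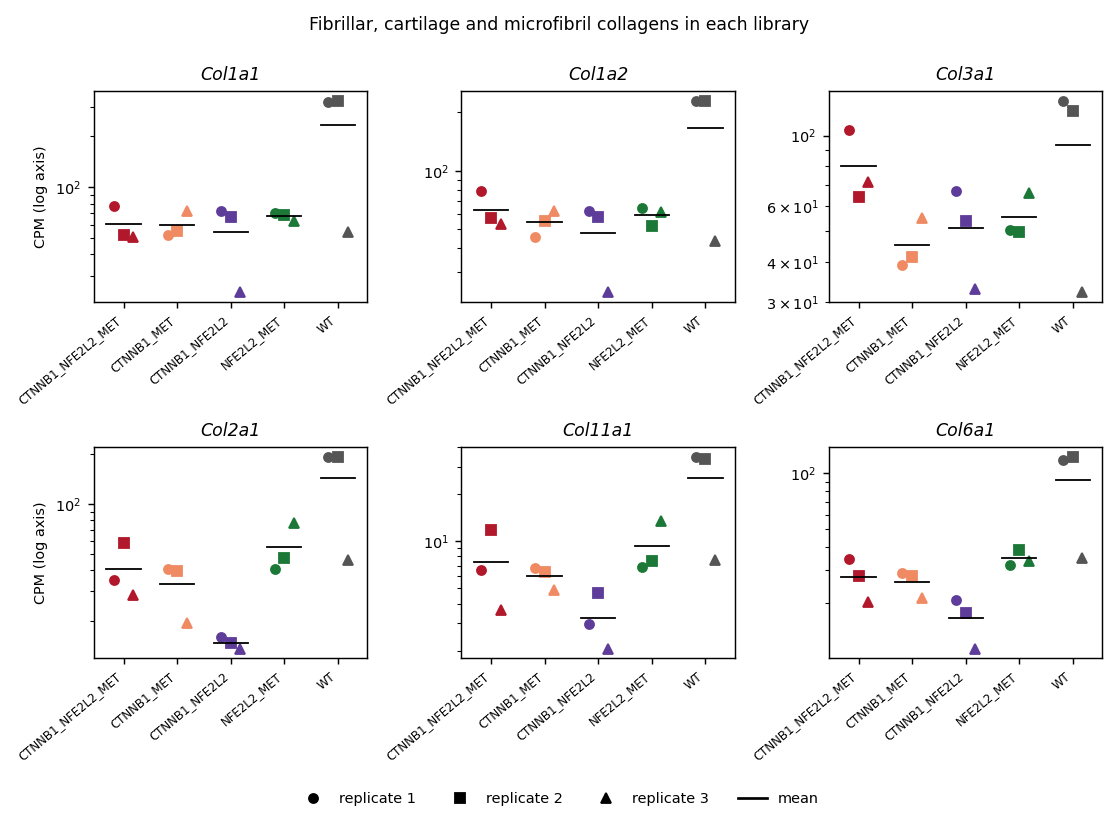
Col1a1, Col1a2, Col3a1, Col2a1, Col11a1 and Col6a1 in each of the 15 libraries, in TMM-scaled CPM on a log axis; points are libraries and lines group means (n = 3 each). WT replicates 1 and 2 stand above the transgene libraries for all 6 genes and WT replicate 3 does not.

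Over all classes, 17 of the 37 members had WT replicates 1 and 2 above all 12 transgene libraries, and in 15 of these 17 WT replicate 3 was within the transgene range, the exceptions being Col3a1 and Col9a3. The 17 include Col28a1, which reached the minimum only through its level in WT livers, and Col8a2, neither of them tested. Of the 34 tested members 15 showed the pattern, beside 9.38% of the 14098 tested genes. By class it held for 5 of 7 fibrillar, 5 of 6 cartilage, 4 of 6 microfibril, 1 of 4 fibril-associated (Col12a1), 0 of 8 basement membrane and 0 of 3 transmembrane collagens. The type VI microfibril genes show it plainly: Col6a1 had 34.5, 28.0 and 20.3 CPM in triple livers, 28.8, 27.9 and 21.2 CPM in CTNNB1/MET livers, 20.7, 17.5 and 11.3 CPM in CTNNB1/NFE2L2 livers, 31.9, 38.7 and 33.6 CPM in NFE2L2/MET livers, and 118.9, 123.3 and 35.1 CPM in WT livers. Col6a2, its partner chain, had 24.2, 18.9 and 14.3 CPM in triple livers, 20.2, 17.6 and 15.7 CPM in CTNNB1/MET livers, 14.6, 11.6 and 8.06 CPM in CTNNB1/NFE2L2 livers, 21.1, 28.5 and 25.5 CPM in NFE2L2/MET livers, and 84.3, 77.4 and 24.5 CPM in WT livers. Both were called lower against WT livers in CTNNB1/NFE2L2 livers with all 3 WT libraries (Col6a1 −2.48 ± 0.41, edgeR adjusted p = 0.000346) and with WT replicate 3 alone. Col6a3 and Col8a1, a short-chain collagen of vessel walls, had the same 2 libraries on top, at 28.9 and 31.6 CPM for Col6a3 and 14.5 and 16.8 CPM for Col8a1. Summed per length, the fibrillar class was 12.2 to 36.0 RPKM in the 12 transgene libraries and 96.9, 99.3 and 24.7 RPKM in WT libraries. The cartilage class was 1.98 to 11.3 RPKM in transgene libraries and 27.0, 26.3 and 6.83 RPKM in WT libraries.

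Most tested cartilage markers other than collagens were also above all transgene libraries in these 2 libraries. The 17 markers listed, 11 of them tested, summed to 60.5 to 76.2 CPM in triple, 73.8 to 79.4 in CTNNB1/MET, 48.8 to 63.6 in CTNNB1/NFE2L2, 96.2 to 107 in NFE2L2/MET and 106.5 to 204.2 in WT livers. Of the 11, 8 had WT replicates 1 and 2 above all transgene libraries: Acan, Comp, Matn4, Hapln1, Lect1, Ucma, Prelp and Fmod. Acan (aggrecan) had 35.7, 35.8 and 10.4 CPM and Comp 29.9, 29.5 and 5.71 CPM in the 3 WT libraries. Other cartilage genes, Matn1 and Epyc, were near 0, at most 0.0573 and 0.0589 CPM in any library. This pattern sets no condition on WT replicate 3, so a gene high in all 3 WT libraries, such as Lrat, counts too. Of all tested genes 9.38% showed it. It was found in 13 of 28 genes of collagen synthesis and crosslinking, 6 of 11 of collagen breakdown and 5 of 15 fibrogenic signals. The pattern was also found in 5 of 18 basement membrane partners and 2 of 9 collagen receptors. Among cell type markers it was found in 3 of 14 fibroblast, 3 of 12 stellate, 2 of 6 bile duct (Sox9 and Spp1) and 1 of 5 mesothelial markers (Upk3b). It was found in 0 of 2 bone, 0 of 2 muscle, 0 of 9 endothelial and 0 of 6 hepatocyte markers. Lox, the collagen-crosslinking lysyl oxidase, had 193.7, 191.2 and 51.7 CPM in WT livers. The part of other tissue in the WT values was not tested.

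**Figure D4:**
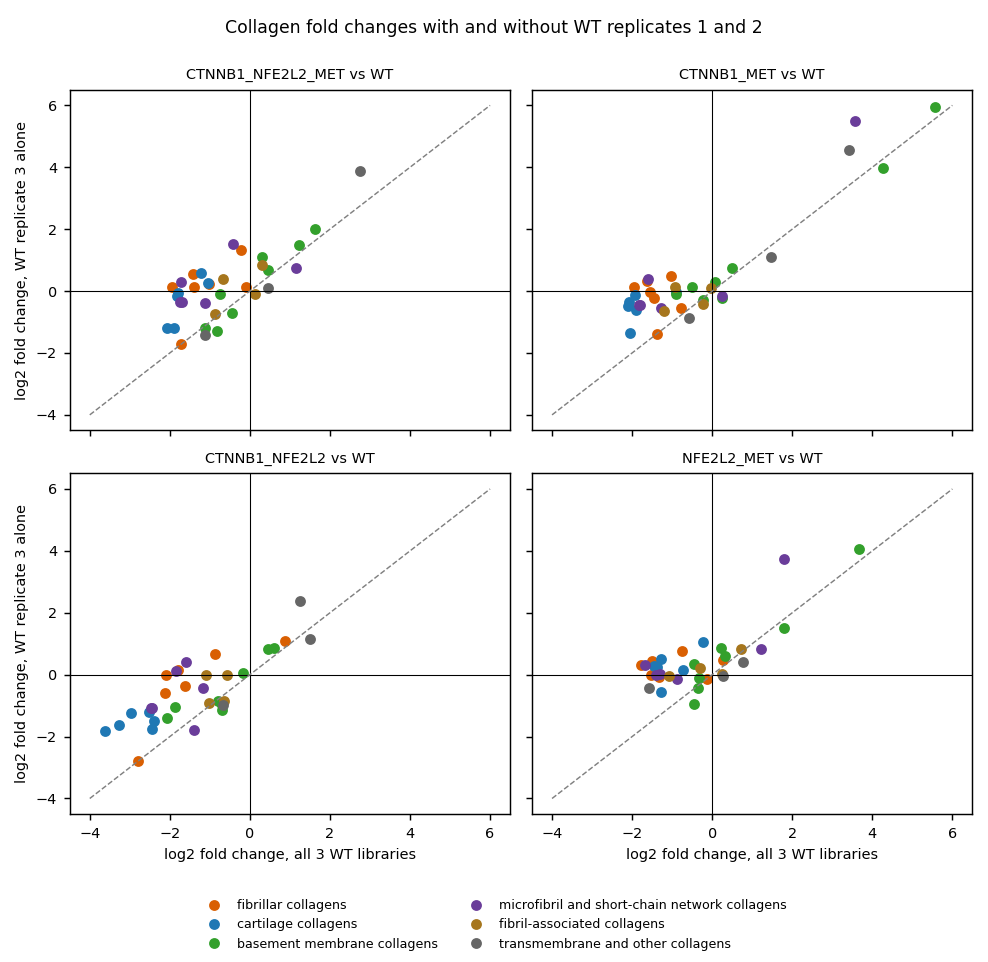
Log2 fold change of each of the 34 tested collagens against WT livers with all 3 WT libraries (x) and with WT replicate 3 alone (y), 1 panel for each transgene group, coloured by class. Most fibrillar, cartilage and microfibril genes sit left of 0 on the x axis and shift upward on the y axis, while Col4a3, Col4a4, Col6a6 and Col23a1 stay high on both where they were called.

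The counts against WT livers are given with and without those 2 libraries. In triple livers 2 of 34 collagens were called higher and 16 lower against WT livers (26.5% and 23.4% of all tested genes), and 3 higher and 4 lower with WT replicate 3 alone. In CTNNB1/MET livers 4 were higher and 14 lower (11% and 6.22% of all genes), and 4 and 1 with WT replicate 3 alone. In CTNNB1/NFE2L2 livers 3 were higher and 21 lower (24.5% and 24.2%), and 3 and 8 with WT replicate 3 alone. In NFE2L2/MET livers 3 were higher and 8 lower (13.5% and 9.89%), and 2 and 0 with WT replicate 3 alone. With WT replicate 3 alone, 36.1%, 9.84%, 34.1% and 13.1% of all genes were called in either direction in these 4 comparisons. The members' median change against WT was −0.94 in triple, −0.91 in CTNNB1/MET, −1.49 in CTNNB1/NFE2L2 and −0.46 in NFE2L2/MET livers, beside medians of all tested genes between −0.019 and 0.031 over the 10 comparisons. With WT replicate 3 alone the fibrillar medians were 0.14, −0.04, 0.00 and 0.30 in that order, and the cartilage medians −0.11, −0.41, −1.57 and 0.26.

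The calls made both with all 3 WT libraries and with WT replicate 3 alone were, in triple livers, Col4a1 and Col23a1, higher, and Col11a2, Col13a1, Col18a1 and Col27a1, lower. In CTNNB1/MET livers they were Col4a3, Col4a4, Col6a6 and Col23a1, higher, and Col27a1, lower. CTNNB1/NFE2L2 livers had Col4a1, Col5a3 and Col23a1 higher, and Col2a1, Col6a1, Col6a2, Col11a2, Col14a1, Col15a1, Col18a1 and Col27a1 lower. NFE2L2/MET livers had Col4a4 and Col6a6 higher, while Col4a3 was lost (1.51). WT replicate 3 held 1 count of Col4a4, 2 of Col6a6 and 3 of Col23a1, against 14 of Col4a3. The calls of those first 3 genes against it therefore rest on very few counts in each group named, and their being kept is weak evidence.

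Comparisons between transgene groups do not use the WT libraries' levels, but each gene's spread is shared over all 15 libraries. The split among WT libraries therefore enters the SE of genes such as Col1a1. In CTNNB1/MET over CTNNB1/NFE2L2 livers that SE was 0.55, beside 0.14 for Col18a1. A gene of this kind that was not called may still differ, and the class counts below carry this limit. Any difference among the 4 transgene groups was called for 18 of 34 collagens, beside 56.0% of all tested genes, so the collagens' share was near that of genes in general. By class these were 7 of 8 basement membrane, 3 of 4 fibril-associated, 2 of 3 transmembrane, 2 of 7 fibrillar (Col27a1 and Col5a3), 2 of 6 cartilage (Col2a1 and Col11a2) and 2 of 6 microfibril collagens (Col6a5 and Col6a6). CTNNB1/NFE2L2 livers stood at the low end. Against NFE2L2/MET livers they had 2 collagens higher and 16 lower (18.3% and 18.9% of all genes), with a median change of −0.91. Triple livers had 10 higher and 1 lower against CTNNB1/NFE2L2 livers (13.1% and 11.8%), with a median of 0.64; the 10 fell to 3 without triple replicate 1. CTNNB1/MET livers had 9 higher and 1 lower against CTNNB1/NFE2L2 livers (17.2% and 17.9%), with a median of 0.58. The 1 lower gene was Col5a3 in both.

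The remaining contrasts were more even. Triple livers had 4 collagens higher and 6 lower against CTNNB1/MET livers (18.4% and 15.4% of all genes), with a median of 0.16. They had 3 higher and 8 lower against NFE2L2/MET livers (16.4% and 14.3%), with a median of −0.32. CTNNB1/MET livers had 4 higher and 2 lower against NFE2L2/MET livers (6.96% and 7.36%), with a median of −0.34. These comparisons share groups, so the counts are not independent of each other.

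**Figure D5:**
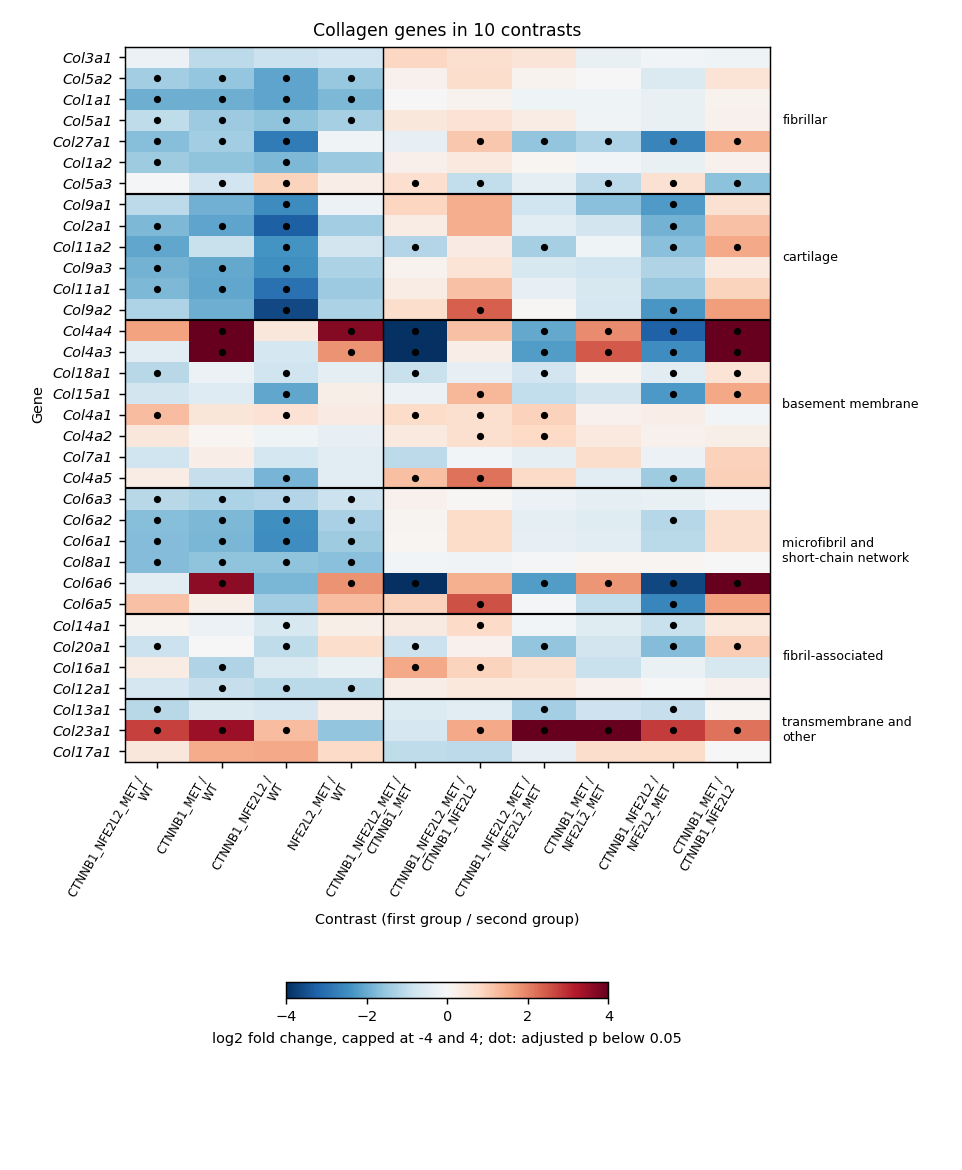
Log2 fold change of the 34 tested collagens (down, by class) in the 10 comparisons (across, first-named group over second), coloured with values beyond ±4 capped; dots mark adjusted p under 0.05 (edgeR). Most fibrillar, cartilage and microfibril genes are low against WT in all 4 transgene groups, and Col6a6 reaches 5.41 between transgene groups (CTNNB1/MET over CTNNB1/NFE2L2).

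Of the fibril-associated collagens, Col14a1, Col20a1 and Col16a1 differed among the transgene groups. Col14a1, which binds type I fibrils, had 29.1, 28.0 and 33.2 CPM in triple livers, 24.8, 23.2 and 23.0 CPM in CTNNB1/MET livers, 20.6, 14.9 and 17.3 CPM in CTNNB1/NFE2L2 livers, 37.7, 25.0 and 35.5 CPM in NFE2L2/MET livers, and 29.0, 22.4 and 31.9 CPM in WT livers. The CTNNB1/NFE2L2 libraries were the lowest 3. Col14a1 was lower there than in NFE2L2/MET livers (−0.90 ± 0.16, edgeR adjusted p = 0.000537) and WT livers (−0.65 ± 0.16, adjusted p = 0.00393), and higher in triple than in CTNNB1/NFE2L2 livers (0.77 ± 0.16, adjusted p = 0.00313).

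Col20a1 had 2.51, 1.30 and 2.04 CPM in triple livers, 3.98, 4.39 and 2.24 CPM in CTNNB1/MET livers, 1.16, 2.04 and 2.06 CPM in CTNNB1/NFE2L2 livers, 6.36, 5.72 and 5.38 CPM in NFE2L2/MET livers, and 4.17, 3.26 and 3.27 CPM in WT livers. The NFE2L2/MET libraries were the highest 3. It was lower than in NFE2L2/MET livers both in triple (−1.58 ± 0.29, edgeR adjusted p = 0.000806) and in CTNNB1/NFE2L2 livers (−1.74 ± 0.29, adjusted p = 0.000296). Col16a1 had 15.4, 10.3 and 5.94 CPM in triple livers, 3.68, 4.68 and 2.82 CPM in CTNNB1/MET livers, 6.47, 5.75 and 4.95 CPM in CTNNB1/NFE2L2 livers, 7.78, 5.86 and 6.93 CPM in NFE2L2/MET livers, and 10.6, 9.08 and 5.84 CPM in WT livers. The CTNNB1/MET libraries were the lowest 3, and triple livers were higher than they were (1.51 ± 0.31, edgeR adjusted p = 0.00182). Col13a1, a transmembrane collagen, had 1.38, 3.08 and 2.29 CPM in triple livers, 3.06, 4.04 and 2.77 CPM in CTNNB1/MET livers, 2.37, 2.35 and 4.50 CPM in CTNNB1/NFE2L2 livers, 4.60, 7.72 and 5.21 CPM in NFE2L2/MET livers, and 4.31, 4.27 and 6.03 CPM in WT livers. Triple libraries lay below all NFE2L2/MET and WT libraries (against NFE2L2/MET −1.37 ± 0.32, edgeR adjusted p = 0.00447). Col17a1, of hemidesmosomes, averaged 0.291 to 0.861 CPM in the 5 groups. Col12a1, which also decorates type I fibrils, had 14.1, 12.4 and 13.5 CPM in triple livers, 14.2, 10.3 and 8.88 CPM in CTNNB1/MET livers, 11.6, 9.25 and 8.84 CPM in CTNNB1/NFE2L2 livers, 12.1, 8.85 and 8.76 CPM in NFE2L2/MET livers, and 23.8, 29.2 and 10.1 CPM in WT livers. Its transgene groups overlapped, and the test among them gave an edgeR adjusted p of 0.508.

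Genes that build, bind or signal to collagen were counted from lists chosen with earlier results of these data known. Of 28 tested genes of collagen synthesis and crosslinking, 6 were higher and 2 lower in triple than in CTNNB1/NFE2L2 livers (13.1% and 11.8% of all genes), and 2 higher and 6 lower in CTNNB1/NFE2L2 than in NFE2L2/MET livers (18.3% and 18.9% of all genes). Loxl2, a crosslinking enzyme, had 22.7, 12.4 and 8.51 CPM in triple livers, against at most 6.76 CPM in any other library. It was higher in triple than in CTNNB1/MET livers (1.71 ± 0.36, edgeR adjusted p = 0.0023). Bmp1, the proteinase that trims procollagen ends, had 143.5, 152.6 and 142.8 CPM in CTNNB1/MET livers, against 36.4, 33.3 and 44.6 CPM in CTNNB1/NFE2L2 livers (1.94 ± 0.15, edgeR adjusted p = 1.16e-07). Against WT livers Bmp1 was called lower in CTNNB1/NFE2L2 (−2.02 ± 0.15), triple (−1.08 ± 0.14) and NFE2L2/MET livers (−0.6 ± 0.14). In CTNNB1/MET livers it was not called (−0.08 ± 0.14). Serpinh1, the collagen chaperone, and P4ha1, a prolyl hydroxylase, were called in none of the 6 comparisons between transgene groups; P4ha1 had 10.5 to 45 CPM within CTNNB1/NFE2L2 livers alone.

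Of 18 tested basement membrane partners, 7 were higher and 2 lower in triple than in CTNNB1/NFE2L2 livers (13.1% and 11.8% of all genes), and 6 higher and 4 lower in CTNNB1/MET than in CTNNB1/NFE2L2 livers (17.2% and 17.9% of all genes). Nid1, the nidogen that links laminin to type IV collagen, had 218.1, 163.4 and 138.8 CPM in triple livers, against 31.4, 25.7 and 20.3 CPM in CTNNB1/NFE2L2 livers (2.75 ± 0.22, edgeR adjusted p = 3.48e-06). Against WT livers Nid1 was called higher in triple (2.7 ± 0.22), CTNNB1/MET (2.29 ± 0.22) and NFE2L2/MET livers (2.4 ± 0.22). In CTNNB1/NFE2L2 livers it was not (−0.04 ± 0.22). Lama2, a laminin chain, was instead high in CTNNB1/NFE2L2 livers, with 1.78, 1.63 and 0.992 CPM in CTNNB1/MET livers, against 27.8, 22.1 and 26.7 CPM in CTNNB1/NFE2L2 livers (−4.14 ± 0.21, edgeR adjusted p = 1.85e-09). Against WT livers Lama2 was called higher in CTNNB1/NFE2L2 (4.58 ± 0.22), triple (3.5 ± 0.22) and NFE2L2/MET livers (1.27 ± 0.24). In CTNNB1/MET livers it was not (0.45 ± 0.26). Lamb1, another laminin chain, was higher in triple than in CTNNB1/NFE2L2 livers (0.89 ± 0.24, edgeR adjusted p = 0.0136). Hspg2, perlecan, was called in no comparison between transgene groups.

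Ddr1, a collagen-binding receptor kinase and 1 of 9 tested collagen receptors, had 19.4, 14.3 and 11.8 CPM in triple livers, against 6.93, 5.74 and 5.12 CPM in CTNNB1/MET livers (1.36 ± 0.23, edgeR adjusted p = 0.000373). Against WT livers Ddr1 was called higher in triple (1.54 ± 0.23), CTNNB1/NFE2L2 (1.6 ± 0.23) and NFE2L2/MET livers (0.99 ± 0.24). In CTNNB1/MET livers it was not (0.18 ± 0.24). Of those 9 receptors, 4 were higher and 0 lower in triple than in CTNNB1/NFE2L2 livers (13.1% and 11.8% of all genes). Itga1, a chain of a collagen-binding integrin, was higher in triple than in CTNNB1/NFE2L2 livers by a small step (0.44 ± 0.09, edgeR adjusted p = 0.00275), and Ddr2 was lower in CTNNB1/NFE2L2 than in NFE2L2/MET livers (−0.95 ± 0.21, adjusted p = 0.00239). Of 15 tested fibrogenic signals, 6 were higher and 0 lower in triple than in CTNNB1/MET livers (18.4% and 15.4% of all genes), while Tgfb1, the fibrogenic cytokine, was called in none of the 10 comparisons. Of 11 tested genes of collagen breakdown, 2 were higher and 1 lower in that comparison, near the share of all genes. Mmp14, a collagenase of the cell surface, was higher in triple than in CTNNB1/NFE2L2 livers (1.26 ± 0.30, edgeR adjusted p = 0.0087). Mmp2 and Timp1 were called lower in each transgene group against WT livers, and Mmp2 had 24.4, 23.4 and 5.13 CPM in the 3 WT libraries. Both genes had WT replicates 1 and 2 above all transgene libraries, so these calls rest largely on those libraries. Against WT replicate 3 alone neither call was kept in CTNNB1/MET or NFE2L2/MET livers. In triple and in CTNNB1/NFE2L2 livers the calls of both genes were not kept together.

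The 12 stellate markers summed to 634.3 to 927.7 CPM in triple, 411 to 521.8 in CTNNB1/MET, 186.9 to 219.8 in CTNNB1/NFE2L2, 319.1 to 397.1 in NFE2L2/MET and 233.7 to 256.3 in WT livers. Reln, a secreted glycoprotein of quiescent stellate cells, had 362.8, 276.9 and 281 CPM in triple livers, against 31.6, 31.2 and 50.1 CPM in WT livers. It was called higher than in WT livers in triple (3.03 ± 0.23), CTNNB1/MET (2.85 ± 0.23) and NFE2L2/MET livers (2.16 ± 0.22). In CTNNB1/NFE2L2 livers it was not (−0.12 ± 0.21). Reln and Ecm1 were the 2 largest parts of that sum in each triple library. Lrat, which esterifies retinol for storage, had 7.01, 4.33 and 9 CPM in triple livers, against 11.7, 13.6 and 12 CPM in WT livers. Of 6 tested bile duct markers, 3 were higher and 2 lower in triple than in WT livers (26.5% and 23.4% of all genes). Among them were Epcam (5.12 ± 0.34, edgeR adjusted p = 4.6e-08) and Sox9 (−1.31 ± 0.29, adjusted p = 0.00157). The 2 lower ones, Sox9 and Spp1, were those with WT replicates 1 and 2 above all transgene libraries. Their calls rest on those libraries, and neither was kept against WT replicate 3 alone. Fibroblast markers summed to 227.2 to 248.8 CPM in triple, 198.5 to 248.2 in CTNNB1/MET, 168.1 to 217.9 in CTNNB1/NFE2L2, 256.1 to 271.8 in NFE2L2/MET and 287 to 514.9 in WT livers. Acta2, the actin of myofibroblasts, was higher in triple than in NFE2L2/MET livers (1.07 ± 0.36, edgeR adjusted p = 0.0402), while the list's sum was lower. In triple against WT livers Acta2 did not pass (0.21 ± 0.35, edgeR adjusted p = 0.651). There Tagln and Fbln1 were called higher and Dcn, Bgn and Fbln2 lower. Bgn and Fbln2 had WT replicates 1 and 2 above all transgene libraries. The part of these cells in the collagen values was not tested.

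Replicate 3 of the triple, CTNNB1/MET and WT groups carry a mark of being added, 3 libraries in all. Each had the lowest Col2a1 of its group, at 28.7, 19.3 and 46.0 CPM in that order, and Col1a1 among them was 50.7, 72.2 and 54.5 CPM. No other group had such a library, so the mark and the group could be separated only in part, and values without the 3 libraries are given with the other alternatives.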

How the data were processed

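Poly(A) RNA-seq was counted per gene by the authors, and the deposited files hold raw counts, 1 file for each of 15 libraries, in the layout of STAR's gene counts. Trimmomatic and STAR are named in the submitters' processing notes, without versions. The build is mm10, per the submitters' processing notes, and the annotation release is not stated in the labels or files. The unstranded column was used, since 49.7% to 49.9% of stranded counts fell on either strand. The 4 rows that name no gene, 24.5% to 42.4% of a library's counts, were left out. The 15 pairs of replicates differed beyond counting noise (chi-square per gene 13.2 to 107.6).

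Counts were fitted with edgeR 4.0.16 (R 4.3.3; quasi-likelihood F test, robust, TMM, filterByExpr by group) over all 15 libraries, with 10 contrasts and 1 test for any difference among the 4 transgene groups. P-values were Benjamini-Hochberg adjusted over 14098 genes, at 0.05, and the SE is the change over the root of F. Levels per length used GENCODE M21 exon lengths, which may differ from the authors' annotation. The scripts were tested on simulated counts. Alternatives were RLE size factors, no filter, 1 strand, DESeq2 1.42.0, the libraries compared alone, the 3 libraries marked as added left out or given a term, and each replicate left out. Total-count scaling and leaving out WT replicates 1 and 2 were chosen after seeing the data. The members, classes and gene lists were chosen with earlier results of these data known. Every member is named or counted. Values in every library are given for Col1a1, Col1a2, Col3a1, Col4a1, Col4a2, Col2a1, Col9a1 and, in each class, up to 4 called members with the largest changes; Col4a5, Col5a3 and Col18a1 and others beyond these were added after their values were seen. Of the other lists, the genes named are those with the smallest p and a fixed set of well-known ones; others were chosen after their values were seen, and 1 gene that the rule picks is not reported here. Intervals of count ratios cover counting error only. Promoter windows and sequences are from RefSeq.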

Additional observations from a re-analysis of the deposited data

Results flagged for a closer look

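Col5a3, a minor chain of type V collagen, moved in opposite directions in CTNNB1/MET and CTNNB1/NFE2L2 livers relative to WT livers. All 3 CTNNB1/MET libraries (3.31, 2.27 and 3.03 CPM) lay below the 3 WT libraries (5.03, 5.46 and 4.23 CPM), and all 3 CTNNB1/NFE2L2 libraries (10.3, 10.2 and 6.56 CPM) lay above them. The changes against WT livers were −0.77 for CTNNB1/MET (edgeR adjusted p = 0.035, lost in 8 of 13 planned settings) and 0.88 for CTNNB1/NFE2L2 livers (adjusted p = 0.00374). The difference between these changes equals the direct contrast of CTNNB1/MET with CTNNB1/NFE2L2 livers, −1.65 (edgeR adjusted p = 4.98e-05).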

How the results depend on the processing

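The 137 called values of single collagens were recomputed under each alternative. Calls were kept for 136 with RLE size factors, 137 with DESeq2, 125 without the filter, 120 of 135 on 1 strand, 96 of 132 with the compared libraries alone, 128 without the added libraries, 133 with a term for them and 126 with total-count scaling. Without WT replicates 1 and 2, 24 of 71 were kept, 34 lost the threshold and 13 turned. Those that turned changed sign at small values, of at most 0.54 against 1 WT library, which does not show a reversal. The 13 were in triple livers Col5a2 (0.12), Col1a1 (0.14), Col8a1 (0.28), Col5a1 (0.23) and Col1a2 (0.54), in CTNNB1/MET livers Col1a1 (0.13), Col8a1 (0.40) and Col12a1 (0.13), in CTNNB1/NFE2L2 livers Col8a1 (0.42) and Col1a2 (0.15), and in NFE2L2/MET livers Col6a2 (0.02), Col1a1 (0.30) and Col8a1 (0.32). Counts of collagens called lower against WT livers became 4 (triple), 1 (CTNNB1/MET), 8 (CTNNB1/NFE2L2) and 0 (NFE2L2/MET) in that setting. They became 9 (triple), 4 (CTNNB1/MET) and 0 (NFE2L2/MET) with the compared libraries alone. For NFE2L2/MET livers they were 5 without the filter and 18 without the added libraries. With the compared libraries alone the counts were 7 higher for triple over CTNNB1/MET, 6 higher and 2 lower for triple over CTNNB1/NFE2L2, 5 lower for CTNNB1/MET over NFE2L2/MET, 1 higher for CTNNB1/NFE2L2 over NFE2L2/MET, and 16 higher and 2 lower for CTNNB1/MET over CTNNB1/NFE2L2. On 1 strand 2 were higher for triple over CTNNB1/MET and 1 for CTNNB1/NFE2L2 over NFE2L2/MET. DESeq2 gave 2 lower for triple over CTNNB1/NFE2L2. Triple over NFE2L2/MET had 5 higher without the added libraries, 5 with a term for them and 5 with total-count scaling. Without the added libraries CTNNB1/MET over NFE2L2/MET had 1 lower and CTNNB1/NFE2L2 over NFE2L2/MET 1 higher. With a term for them CTNNB1/MET over CTNNB1/NFE2L2 had 15 higher. The cause was not tested.

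Leaving out 1 replicate gave these ranges against WT livers: triple 2 to 3 higher and 10 to 20 lower, CTNNB1/MET 4 to 4 and 5 to 20, CTNNB1/NFE2L2 1 to 3 and 18 to 25, NFE2L2/MET 2 to 3 and 0 to 15. Between transgene groups they were 2 to 4 higher and 4 to 6 lower for triple over CTNNB1/MET, 3 to 9 and 1 to 1 for triple over CTNNB1/NFE2L2, and 3 to 5 and 7 to 9 for triple over NFE2L2/MET. They were 3 to 4 and 2 to 3 for CTNNB1/MET over NFE2L2/MET, 1 to 2 and 12 to 15 for CTNNB1/NFE2L2 over NFE2L2/MET, and 8 to 9 and 1 to 1 for CTNNB1/MET over CTNNB1/NFE2L2. Any difference among transgene groups was called for 16 to 18. Total-count scaling moved the median of all genes to between −0.18 and 0.375. No paired analysis was possible because nothing in the sample titles ties a sample of one group to one of another. At 3 libraries a group, and with Col4a4, Col6a6 and Col9a chains at under 30 counts in some groups, the size of their changes is imprecise.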
